A study of Mus musculus with 8 samples.

Results

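The 4 mouse genes followed across the study were Carns1, Dapl1, Galnt9 and Rnf157. They were chosen by their large log2 signal differences between resting CD4+ T cells with dorsomorphin and resting control cells on these arrays, and their probe sets were taken by symbol from the platform annotation. They are 4 of 18193 genes with a probe set and are read by 8 probe sets, 1 each for Carns1, Dapl1 and Galnt9 and 5 for Rnf157. All 4 were among the 13983 genes bright enough to be tested. Messenger RNA of primary CD4+ T cells from the BALB/c mouse strain was measured on 8 Affymetrix arrays, 2 for each of 4 groups. The groups were cells stimulated with plate-bound anti-CD3 and soluble anti-CD28 antibody and given dorsomorphin, stimulated cells without it, unstimulated cells with dorsomorphin, and unstimulated control cells. Dorsomorphin was used at 4 µM, added after the first 1 h of culture and left for 6 h, with the solvent DMSO in its place in the cells without it. The ages of the mice, and whether the 2 arrays of a group came from separate mice or cultures, are not stated in the labels, so the p-values reflect array-to-array spread alone, possibly of technical origin.

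Dorsomorphin is a small molecule that inhibits the type I receptors of the bone morphogenetic protein (BMP) family and, besides, the energy-sensing kinase AMPK. Antibodies against CD3 and CD28 stand in for antigen and costimulation and take a resting T cell into activation. Carns1 encodes carnosine synthase, which uses ATP to join beta-alanine to histidine and is best known from skeletal muscle and brain. Dapl1 encodes a small protein related to death-associated protein 1, first described in epithelium and often listed among genes of naive T cells. Galnt9 encodes a transferase of the family that starts mucin-type O-glycans by placing N-acetylgalactosamine on serine or threonine, and is known mainly from brain. Rnf157 encodes a RING-type E3 ubiquitin ligase related to Mgrn1 and studied mostly in neurons.

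In the mouse assembly GRCm38.p6, Carns1 lies on chromosome 19 from 4164324 to 4175479, Dapl1 on chromosome 2 from 59484653 to 59505020, Galnt9 on chromosome 5 from 110544032 to 110621383, and Rnf157 on chromosome 11 from 116336345 to 116413391. The promoter windows below, from RefSeq on GRCm38.p6, run from 250 bases before to 50 bases after an annotated start. They are shown because these genes changed signal so widely. The promoter set used held no Carns1 window, so none is shown and its motifs were not examined. The Dapl1 window is chr2:59484403-59484702 on the plus strand, the Galnt9 window chr5:110544105-110544404 on the plus strand, and the Rnf157 window chr11:116412983-116413282 on the minus strand. The Galnt9 and Rnf157 windows lie inside the gene ranges given above. Both genes are thus annotated from further upstream than the start used, and that upstream sequence is not shown. Capitals mark matches, on either strand, to the FOXO core GTAAACA, the TATA-type motif TATAAA, the BMP-type SMAD element GGCGCC, the palindromic SMAD element GTCTAGAC or the box CCAAT.
Dapl1: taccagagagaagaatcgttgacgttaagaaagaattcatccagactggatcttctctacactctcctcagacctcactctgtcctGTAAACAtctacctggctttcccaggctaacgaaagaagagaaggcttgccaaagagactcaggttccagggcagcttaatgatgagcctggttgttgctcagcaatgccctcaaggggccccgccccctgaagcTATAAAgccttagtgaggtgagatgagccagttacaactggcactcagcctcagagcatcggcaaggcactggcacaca
Galnt9: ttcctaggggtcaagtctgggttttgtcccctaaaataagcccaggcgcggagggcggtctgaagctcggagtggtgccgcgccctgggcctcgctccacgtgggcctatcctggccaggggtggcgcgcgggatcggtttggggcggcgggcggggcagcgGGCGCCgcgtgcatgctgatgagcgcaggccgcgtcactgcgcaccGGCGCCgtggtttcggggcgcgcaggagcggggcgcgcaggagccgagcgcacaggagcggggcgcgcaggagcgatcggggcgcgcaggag
Rnf157: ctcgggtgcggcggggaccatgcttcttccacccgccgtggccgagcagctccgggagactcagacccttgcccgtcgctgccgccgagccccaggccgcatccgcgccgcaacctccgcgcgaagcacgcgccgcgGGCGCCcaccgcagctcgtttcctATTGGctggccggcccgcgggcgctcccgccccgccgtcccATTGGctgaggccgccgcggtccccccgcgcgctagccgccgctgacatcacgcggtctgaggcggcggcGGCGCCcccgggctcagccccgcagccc

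The Dapl1 window held the FOXO core at -164 and the TATA box at -29 from the start, and neither SMAD element. The FOXO core occurs in 3.65% and the TATA box in 13.6% of 32851 mouse promoter windows of this length. The Galnt9 window held GGCGCC at -88 and -42, and the Rnf157 window held it at -113 and 23 together with CCAAT boxes on the opposite strand at -89 and -48. GGCGCC occurs in 11.9%, CCAAT in 37.4% and the palindromic SMAD element in 0.213% of all windows. No printed motifs overlapped one another. The Galnt9 and Rnf157 windows were 73.7% and 78.3% G and C, the Dapl1 window 51.0%, and the median window 52.7%. A second annotated start of Galnt9 had a window without any of these motifs, and the array does not tell the starts apart. The motifs were picked with the sequences in view, and a match is a description of letters only.

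The labels were checked against known genes. Il2, the T cell growth factor gene, had signals of 6414 and 18509 in stimulated cells, against 30.5 and 80.8 in control cells. In stimulated cells with dorsomorphin Il2 had 18.8 and 93.7, the level of control cells, and the activation-induced factor gene Egr2 had 170 and 251, against 9162 and 8964 in stimulated cells. The arrays labelled stimulated with dorsomorphin, on which the tested comparison rests, thus lacked the Il2 signal of stimulated cells. Id3, a BMP target gene, had 63.6 and 103 in dorsomorphin cells, against 596 and 549 in control cells. The check genes Id1 and Id2 had log2 folds of -1.87 and -1.16 there and did not pass (limma adjusted p = 0.0659 and 0.0700). Both Id1 dorsomorphin arrays (37.0 and 16.8) lay under the working floor given below, so the size of its fold was not measured. With dorsomorphin in stimulated cells Id1 fell by 2.51 (limma adjusted p = 0.0226). Id3 (-1.15, adjusted p = 0.0579) and Id2 (0.61, adjusted p = 0.236) did not pass in stimulated cells. Replicates correlated at 0.937 to 0.952 across the tested genes (Pearson's r on the log2 scale, where genes are no independent replicates). Signals are the deposited linear values, and a log2 signal of 5.22, or a signal of 37.3, served as the working floor: it is the 40th percentile of all values, and lower values were read only as bounds. The 3' minus 5' log2 signal of actin, an indicator of RNA quality, was 0.49 and 0.69 with stimulation and dorsomorphin, 0.33 on both stimulated arrays, 0.51 and 0.80 with dorsomorphin alone, and 0.47 and 0.61 in control cells. Signals of different genes come from different probes and are not compared with one another.

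In resting cells, Carns1, Dapl1 and Galnt9 were far lower with dorsomorphin than in control cells, and Rnf157 was higher. These values chose the genes and are given as a description, without a test. Carns1 had signals of 82.7 and 48.0 in dorsomorphin cells, against 2576 and 2400 in control cells. Its log2 fold was -5.30 ± 0.75 (SE, n = 2 per group), the 9th lowest of the 13983 tested genes. Both dorsomorphin arrays lay a little above the floor, so the low level is close to the limit of measurement.

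Dapl1 had signals of 195 and 83.0 in dorsomorphin cells, against 4934 and 4406 in control cells. Its log2 fold was -5.20 ± 0.46, the 10th lowest, and all its arrays lay above the floor, so this difference was measured on both sides. It was -5.81 without dorsomorphin replicate 1 and -4.58 without dorsomorphin replicate 2. Galnt9 had signals of 4.94 and 7.10 in dorsomorphin cells, against 323 and 289 in control cells. Both dorsomorphin arrays were under the floor, and Galnt9 was at least 8.21-fold lower there.

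Rnf157, on its brightest probe set, had signals of 1109 and 2158 in dorsomorphin cells, against 92.9 and 167 in control cells. Its log2 fold was 3.63 ± 0.48, the 11th highest. For all 4 genes the dorsomorphin and control arrays did not overlap, and the same held for 65.5% of all tested genes, 42.3% with the dorsomorphin arrays lower and 23.2% with them higher. The median log2 fold of all tested genes in resting cells was -0.24, and 13.1% passed the adjusted threshold, 11.1% as lower and 1.92% as higher. Nothing is read from these shares for the 4 genes, since the same contrast chose them.

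**Figure D1:**
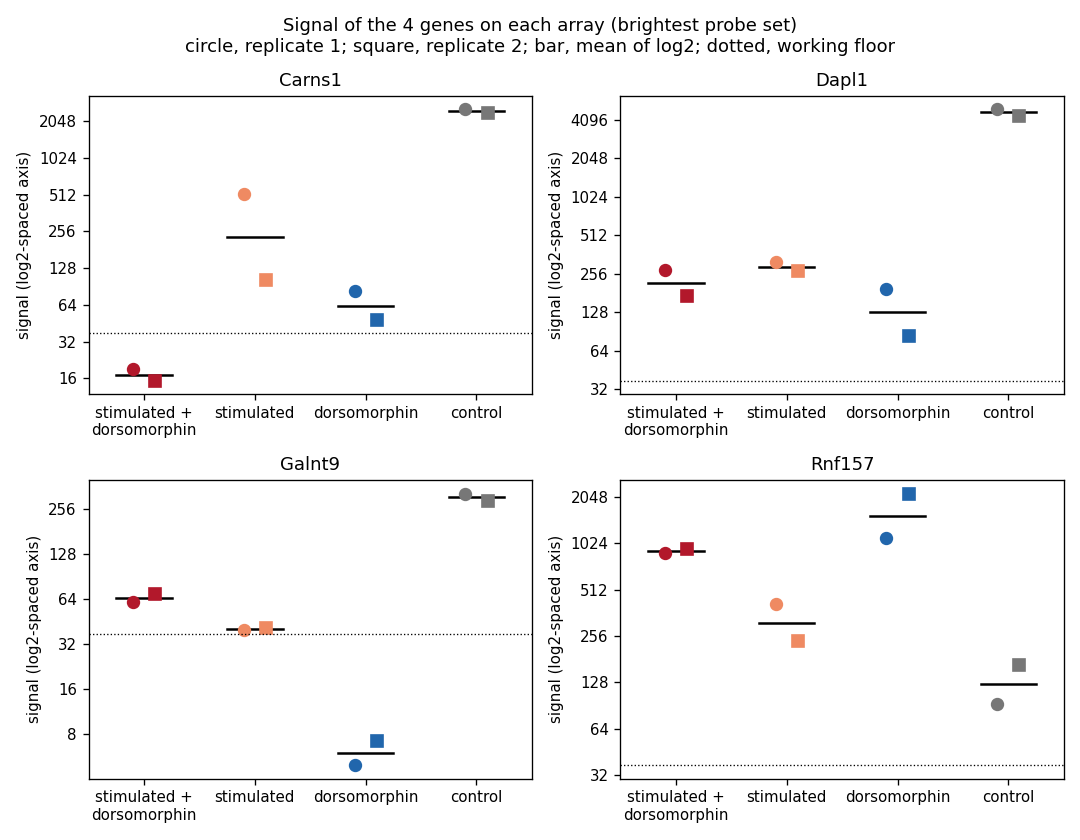
Signal of each gene (log2-spaced axis) on every array, by group, with circles for replicate 1, squares for replicate 2, bars for the mean of the log2 values and a dotted line at the working floor of 37.3. Control arrays are highest for Carns1, Dapl1 and Galnt9 and lowest for Rnf157.

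Markers of several cell types were also lower in resting cells with dorsomorphin. The summed signal of 11 CD4 T cell markers was 31522 to 42282 in dorsomorphin cells and 91276 to 91473 in control cells. Of the 11, 6 fell, 0 rose and 5 did not pass (limma, adjusted p under 0.05). The number that fell was 4 after median centring, 6 after quantile normalization and 7 with cyclic loess. The T cell receptor chain gene Cd3g fell by 3.51 ± 0.35 on the log2 scale (adjusted p = 0.0109) and Thy1, a T cell surface gene, by 2.12 ± 0.25 (adjusted p = 0.0119). None of the 11 markers was under the floor on both arrays of any group.

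The summed signal of 10 myeloid and dendritic cell markers was 1366 to 1746 in dorsomorphin cells and 3501 to 4653 in control cells, and 2 of the 10 fell, Csf1r and Adgre1, the Adgre1 call being lost with each of 3 other scalings. Of the 5 neutrophil markers 0 passed, with sums of 1317 to 2091 in dorsomorphin cells and 3607 to 11397 in control cells. The 7 B cell markers summed to 301 to 357 in dorsomorphin cells and 549 to 631 in control cells, and Ms4a1 fell among 6 tested, not with the 3 other scalings. So the control arrays, which were highest for 3 of the 4 genes, were also the highest arrays for these sums.

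The 5 NK cell markers summed to 132 to 153 in dorsomorphin cells and 318 to 419 in control cells, with 0 of 4 tested past the threshold. The 2 CD8 T cell markers summed to 160 to 316 and 347 to 487 in the same order, with 0 past it. The 3 erythroid markers summed to 131 to 924 in dorsomorphin cells and 110 to 925 in control cells, where the arrays overlap.

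For tissues in which Carns1, Galnt9 or Rnf157 are known, 8 neuron and muscle markers summed to 378 to 434 in dorsomorphin cells and 566 to 618 in control cells, with 0 of 5 tested past the threshold. The synaptic gene Snap25 was under the floor in all 4 groups, as were the B cell factor gene Ebf1 and the NK receptor gene Klra8. The part of these cell types in the values of the 4 genes was not tested, and fewer cells of a type cannot be told apart from less RNA per cell in such bulk samples.

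Dorsomorphin in stimulated cells gave the comparison whose log2 folds share no array with the choice of genes. Its SEs and p-values use a spread estimated from all 8 arrays, so the arrays that chose the genes enter them. In this comparison Carns1 fell too, Dapl1 and Galnt9 did not pass, and Rnf157 did not pass on its brightest probe set. Thus 1 of the 4 genes passed, beside 22.1% of all tested genes (12.4% lower, 9.71% higher), a share too near that background to say anything of the 4 as a set. Arrays did not overlap for 3 of the 4, with 1 lower and 2 higher, against 60.5% of all tested genes (29.1% lower, 31.4% higher).

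Carns1 had signals of 18.9 and 15.3 in stimulated cells with dorsomorphin, against 521 and 102 in stimulated cells. Both dorsomorphin arrays were under the floor, so the gene was at least 6.17-fold lower, a bound of 2.73-fold without stimulated replicate 1 and of 14.0-fold without stimulated replicate 2 (limma on all values, log2 fold -3.76 with an SE of 0.75, n = 2 per group, adjusted p = 0.0213). The stimulated arrays differed widely from each other, yet the lower of them was still above both arrays with dorsomorphin. The call was lost without stimulated dorsomorphin replicate 1 (adjusted p = 0.0828) or replicate 2 (adjusted p = 0.0809), and when the 4 arrays of this comparison were fitted alone (adjusted p = 0.0898). Over all alternatives its adjusted p ran from 0.00178 to 0.0898.

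Beside this result, the CD4 T cell marker sum was 44425 to 47330 in stimulated cells with dorsomorphin and 76399 to 78305 in stimulated cells, with 1 of 11 up and 4 down. The split was 0 up and 4 down after median centring, 1 and 4 after quantile normalization, and 0 and 7 with cyclic loess. The myeloid marker sums overlapped, at 1201 to 1687 with dorsomorphin and 990 to 1715 without it, and 0 of 10 passed. The neutrophil sums also overlapped, at 1033 to 2620 with dorsomorphin and 1590 to 2193 without it.

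The B cell sum was 505 to 513 in stimulated cells with dorsomorphin and 244 to 374 in stimulated cells, and the B cell receptor gene Cd79b and the surface gene Cd22 rose, Cd22 not after median centring. The NK sum was 187 to 242 with dorsomorphin and 506 to 786 without it, and the granule gene Nkg7, which activated T cells also express, fell by 3.04 ± 0.38 (adjusted p = 0.0073). Their part in the Carns1 difference was not tested.

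Dapl1 had signals of 275 and 172 in stimulated cells with dorsomorphin, against 314 and 269 in stimulated cells. These arrays overlapped. The log2 fold was -0.42 ± 0.46, with an unadjusted 95% interval of -1.55 to 0.71 (limma adjusted p = 0.562). Without stimulated dorsomorphin replicate 2 the log2 fold was -0.08, and without replicate 1 it was -0.76, neither past the threshold.

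Galnt9 had signals of 60.6 and 68.5 in stimulated cells with dorsomorphin, against 39.6 and 40.7 in stimulated cells. The arrays did not overlap, and the stimulated arrays were just above the floor. The log2 fold was 0.68 ± 0.26, with an unadjusted interval of 0.05 to 1.31 (limma adjusted p = 0.113). The dorsomorphin arrays were thus the higher pair in stimulated cells and the lower pair in resting cells.

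Rnf157 had signals of 889 and 947 in stimulated cells with dorsomorphin, against 412 and 238 in stimulated cells. The arrays did not overlap, but the log2 fold of 1.55 ± 0.48 (unadjusted interval 0.37 to 2.73) did not pass (limma adjusted p = 0.0696). It passed with 16 added to each signal (adjusted p = 0.0422), with the filter at the 60th percentile (0.0293) and with a variance trend plus robust variance estimates (0.0158). With the mean of its 5 probe sets the log2 fold was 0.70 (adjusted p = 0.332).

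**Figure D2:**
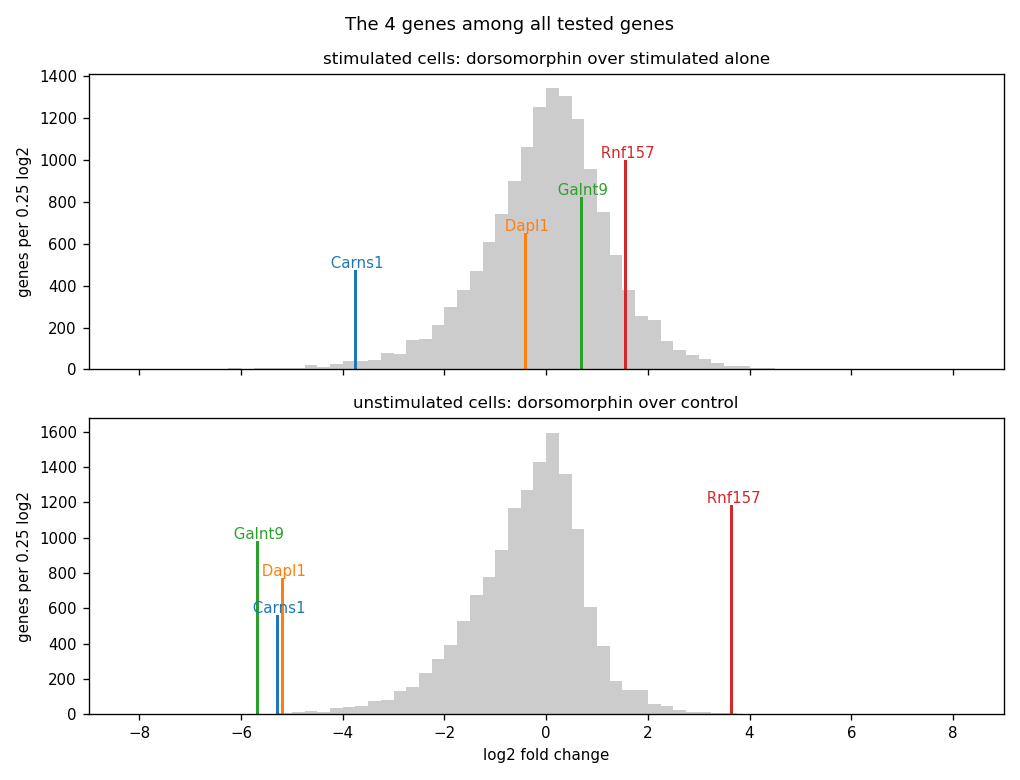
Log2 fold changes of the 4 genes (coloured lines) over the distribution of all 13983 tested genes (grey bars, genes per 0.25 log2), for dorsomorphin in stimulated cells (top) and in unstimulated cells (bottom). Dapl1 lies at -0.42 in stimulated and -5.20 in resting cells. The lines of Carns1 in stimulated cells and of Galnt9 in resting cells use dorsomorphin arrays under the floor, where only bounds of 6.17-fold and 8.21-fold hold.

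Stimulation without the drug went with lower signals of the same 3 genes. Those values share the control arrays that chose the genes, so they are a description only. Carns1 had a log2 fold of -3.43 ± 0.75, Dapl1 of -4.0 ± 0.46 and Galnt9 of -2.93 ± 0.26 in stimulated over control cells, beside a median of -0.27 for all tested genes. Rnf157 had 1.33 ± 0.48. In stimulated cells with dorsomorphin over dorsomorphin alone, which shares the dorsomorphin arrays with the choice, the log2 folds were 0.77 for Dapl1 and -0.75 for Rnf157, while Carns1 was at least 1.69-fold lower and Galnt9 at least 1.73-fold higher, each having a group under the floor.

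The order of the group means therefore differed between the genes. For Carns1 it ran from control through stimulated and dorsomorphin to stimulated with dorsomorphin, with no overlap between neighbours, the last group being under the floor and its gap at least 0.76 log2. The gap of 1.87 log2 between stimulated and dorsomorphin cells was little more than the stimulated SD of 1.67. For Dapl1 control cells stood 4.00 log2 above the next group, and the other three groups followed each other with overlapping arrays. For Galnt9 the order was control, stimulated with dorsomorphin, stimulated, and dorsomorphin. Its first 2 gaps, 2.25 and 0.68, were larger than the SDs beside them, while the dorsomorphin arrays were under the floor, which lay only 0.11 log2 below the stimulated mean. For Rnf157 it was dorsomorphin, stimulated with dorsomorphin, stimulated and control, and the first gap, 0.75, was close to the larger SD of 0.68.

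The 5 probe sets of Rnf157 did not move alike. On 1440400_at, the brightest, the dorsomorphin arrays stood above the others in both states of activation, as given above. On 1453720_at the signals were 91.4 and 76.8 in stimulated cells with dorsomorphin and 40.2 and 4.91 in stimulated cells. In resting cells that probe set had 86.7 and 149 with dorsomorphin and 6.04 and 20.9 in control cells, the control pair lying under the floor. On 1434902_at the log2 fold was 1.47 ± 0.44 in resting and 0.50 ± 0.44 in stimulated cells.

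The remaining probe sets, 1434427_a_at and 1454953_at, are given the same source sequence by the platform annotation and showed no large difference in resting cells. On 1434427_a_at the signals were 205 and 178 in stimulated cells with dorsomorphin, 362 and 277 in stimulated cells, 259 and 341 with dorsomorphin alone, and 237 and 243 in control cells. The stimulated arrays with dorsomorphin were thus below both stimulated arrays, opposite to the brightest probe set. Its log2 fold was 0.31 ± 0.28 in resting cells and -0.73 ± 0.28 in stimulated cells, and that of 1454953_at was 0.20 ± 0.34 and -0.42 ± 0.34. In the fit over all probe sets, 0 of the 5 passed for dorsomorphin in stimulated cells, with limma adjusted p of 0.0790 for the brightest and 0.127, 0.438, 0.472 and 0.149 for the others. The transcripts that each probe set reads were not analysed here.

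**Figure D3:**
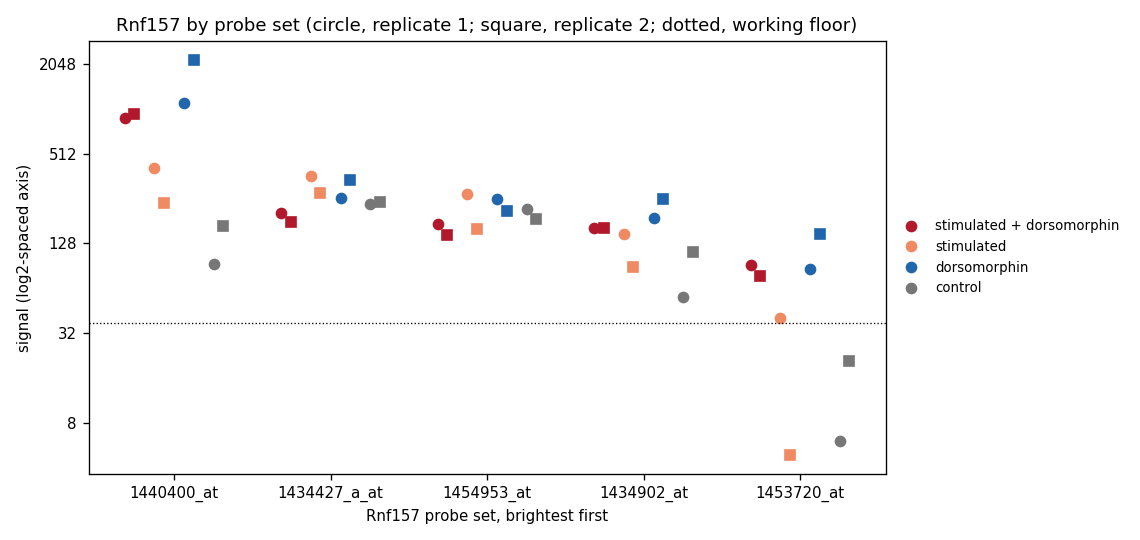
Signal of the 5 Rnf157 probe sets (log2-spaced axis) on each array, from the brightest on the left to the dimmest, with colours for the groups, circles for replicate 1, squares for replicate 2 and a dotted line at the floor. On 1440400_at, 1434902_at and 1453720_at the dorsomorphin arrays lie above the control arrays, while on 1434427_a_at and 1454953_at all 8 arrays lie between 145 and 362.

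Related genes were looked at in lists chosen with earlier results known. They are given as counts past the same limma threshold and medians. Beside them, 22.1% of all tested genes passed in stimulated cells (9.71% higher, 12.4% lower) and 13.1% in resting cells (1.92% higher, 11.1% lower). The medians of all tested genes were 0.07 and -0.24. Of 11 other tested genes of the transferase family of Galnt9, 1 rose and 2 fell in stimulated cells (median 0.04) and 0 rose and 3 fell in resting cells (median -1.13). Galnt10 fell in both, at log2 folds of -1.54 ± 0.33 in stimulated cells (adjusted p = 0.0257) and -3.35 ± 0.33 in resting cells (adjusted p = 0.0109). Galnt11 also fell in both (-1.28 and -2.51), and Galnt2 fell in resting cells (-1.13). Galnt1 rose by 0.92 in stimulated cells. The calls of Galnt1 and Galnt2 were lost after median centring.

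Among 15 tested enzymes that extend or cap O-glycans, 0 rose and 3 fell in stimulated cells (median 0.39) and 0 of 15 passed in resting cells (median -0.06). The sialyltransferase gene St6galnac4 fell by 3.96 ± 0.41 in stimulated cells (adjusted p = 0.00599). St6galnac6, another sialyltransferase gene, fell by 1.35 and the galactosyltransferase gene B4galt5 by 1.03, the last not after median centring (adjusted p = 0.0534).

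Around carnosine, 0 of 15 tested genes rose and 3 fell in stimulated cells (median -0.09), and 1 rose and 2 fell in resting cells (median -0.81). Slc6a6, the transporter of taurine and beta-alanine, fell by 1.86 ± 0.24 in stimulated cells (adjusted p = 0.00769) and by 2.34 ± 0.24 in resting cells (adjusted p = 0.0109). Its signals were 362 and 444 in stimulated cells with dorsomorphin and 1540 and 1378 in stimulated cells, and 303 and 249 with dorsomorphin alone and 1481 and 1313 in control cells, so the drug arrays were the lower ones in either state. Slc15a3, a transporter of histidine and small peptides, fell by 1.73 in stimulated cells and was at least 3.42-fold lower in resting cells, where it also passed. Carnmt1, which methylates carnosine, fell by 1.87 ± 0.20 in stimulated cells (adjusted p = 0.00599). The related transporter gene Slc15a4 rose by 1.12 in resting cells, but not after median centring or cyclic loess.

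Dap, the closest relative of Dapl1 in the lists and a regulator of autophagy, had signals of 1377 and 930 in dorsomorphin cells and 5441 and 5558 in control cells. It fell by 2.28 ± 0.29 (adjusted p = 0.0132). In stimulated cells it had 1319 and 1341 with dorsomorphin and 1523 and 1071 without it, overlapping, at a log2 fold of 0.06 ± 0.29 (adjusted p = 0.913). It was the 1 of 6 tested genes of its list to pass in resting cells, and 0 of 6 passed in stimulated cells (medians -0.66 and 0.07).

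Of 16 naive T cell genes, 2 rose and 1 fell in stimulated cells (median 0.83), and 0 rose and 3 fell in resting cells (median -1.10). Ramp1, a receptor accessory protein gene, fell by 2.89 ± 0.39 in resting cells (adjusted p = 0.0145) and had a log2 fold of 0.30 in stimulated cells. The costimulatory receptor gene Cd27 fell in both (-1.44 and -1.88), and Bach2, a repressor of effector genes, fell by 1.12 in resting cells, but not after median centring. The chemokine receptor gene Ccr7 rose by 1.12 and the T cell factor gene Lef1 by 0.97 in stimulated cells, both calls being lost after median centring or cyclic loess.

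None of the 6 tested relatives and reported partners of Rnf157, which include Mgrn1, Fzr1 and Tsg101, passed in either state (medians 0.61 in stimulated and -0.22 in resting cells). Of the 60 other tested genes with a numbered RNF symbol, 12 rose and 0 fell in stimulated cells (median 0.62), and 2 rose and 3 fell in resting cells (median 0.12). With median centring the stimulated split was 6 up and 3 down, with quantile normalization 13 and 3, and with cyclic loess 11 and 5. All tested genes split in the same order into 684 up and 1531 down of 13955, 1388 and 2056 of 13943, and 1134 and 2163 of 14002. Rnf125, a ligase also known as TRAC-1, rose by 3.18 ± 0.63 in stimulated cells (adjusted p = 0.0204) and Rnf14 by 2.06 ± 0.27 (adjusted p = 0.00817). In resting cells Rnf4 and Rnf7 rose, by 1.08 and 1.18, and Rnf123, Rnf128 and Rnf216 fell (-1.75, -1.70 and -1.25). Rnf4, Rnf7, Rnf128 and Rnf216 were named after their values were seen, being the rest of counts of 5 or fewer. The rise of Rnf7 and the fall of Rnf216 were lost with each of the 3 other scalings, and the rise of Rnf4 after median centring.

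**Figure D4:**
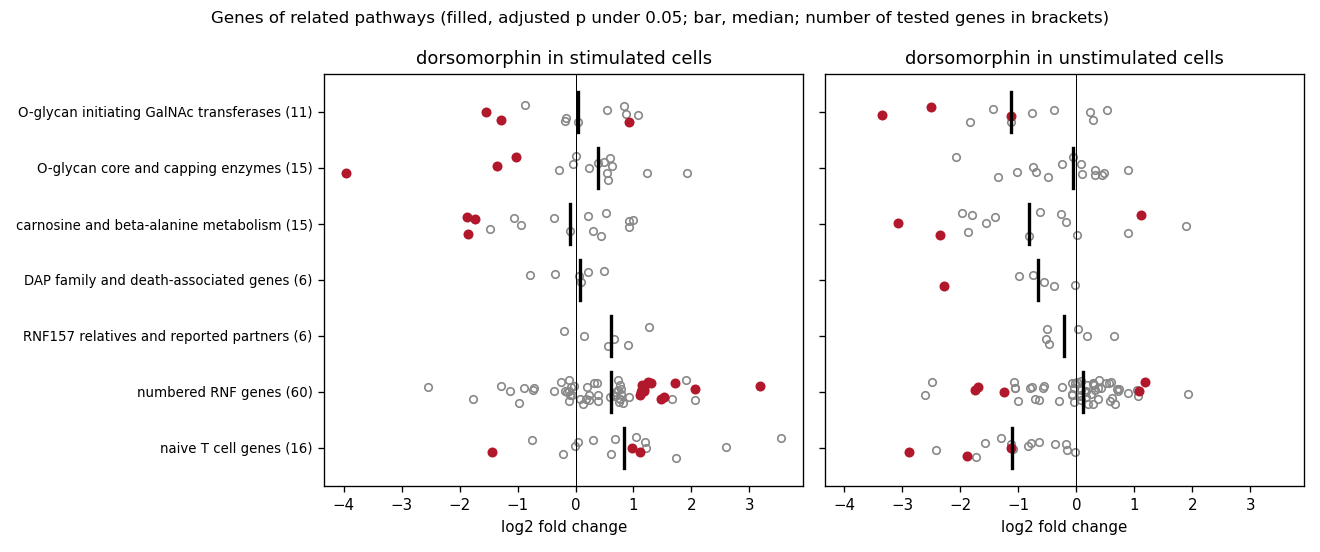
Log2 fold of each tested gene of the 7 lists (points, filled where the adjusted p was under 0.05) and the list's median (bar), for dorsomorphin in stimulated cells on the left and in unstimulated cells on the right. In stimulated cells 12 numbered RNF genes rose, and in resting cells Galnt10 and Slc15a3 were the lowest passing genes of their lists.

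The genes whose profile over the 8 arrays was most like each member were found by the root mean square difference of log2 signals, each profile centred on its own mean. This likeness rests largely on the arrays that chose the 4 genes, and it uses values under the floor as they stand. Kcnmb4, Dand5 and Cyp4f18, and for Rnf157 Eid3, Reg3b and Syn1, were above the floor on 3 to 5 arrays. For Carns1 they were Kcnmb4, a subunit gene of a potassium channel, at 0.60 log2, Arhgap15, a regulator of Rac, at 0.78, Dand5, a secreted antagonist of the Nodal and BMP family, at 1.02, Cyp4f18 at 1.07 and Atp8b4 at 1.10. Kcnmb4 had signals of 7.38 and 8.43 in stimulated cells with dorsomorphin, 174 and 52.8 in stimulated cells, 56.7 and 14.4 with dorsomorphin alone, and 506 and 523 in control cells. The stimulated arrays of Carns1, Kcnmb4, Arhgap15, Dand5, Cyp4f18 and Atp8b4 all had the higher signal on replicate 1. These genes were picked for likeness over the same arrays, so nothing is read from this shared pattern. Over all probe sets the median signal was 66.0 on stimulated replicate 1 and 45.4 on stimulated replicate 2.

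For Dapl1 the closest were Tspan32, a tetraspanin gene, at 0.37 log2, Haus4, a spindle microtubule gene, at 0.43, the amino acid transporter gene Slc43a2 at 0.58, Pnpla7 at 0.62 and Dennd1c at 0.66. Tspan32 had signals of 332 and 244 in stimulated cells with dorsomorphin, 772 and 417 in stimulated cells, 390 and 125 with dorsomorphin alone, and 5446 and 5339 in control cells, so its control arrays also stood far above the rest. For Galnt9 they were Apobec1, an RNA-editing deaminase gene, at 0.82, Mical3 at 0.83, Sh3yl1 at 0.84, Timm8a2 at 0.87 and Frmd4a at 0.92. These 5 were above the floor on only 2 to 5 of the 8 arrays, and Galnt9 itself was under it with dorsomorphin, so these likenesses rest partly on values without a measured level.

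For Rnf157 they were Eid3 at 0.47 log2, Reg3b at 0.56, the nuclear pore gene Nup50 at 0.58, the RNA-binding protein gene Taf15 at 0.59 and Syn1 at 0.62. Nup50 was bright throughout, with 3357 and 4547 in stimulated cells with dorsomorphin, 1554 and 1639 in stimulated cells, 4017 and 5902 with dorsomorphin alone, and 972 and 1033 in control cells. Eid3, Reg3b and Syn1 were under the floor on both control arrays. Among the 4 genes themselves, Dapl1 and Galnt9 were closest, at 1.14 log2, then Carns1 and Dapl1 at 1.41 and Carns1 and Galnt9 at 2.26, while Rnf157 lay 3.33 to 4.01 from the others.

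**Figure D5:**
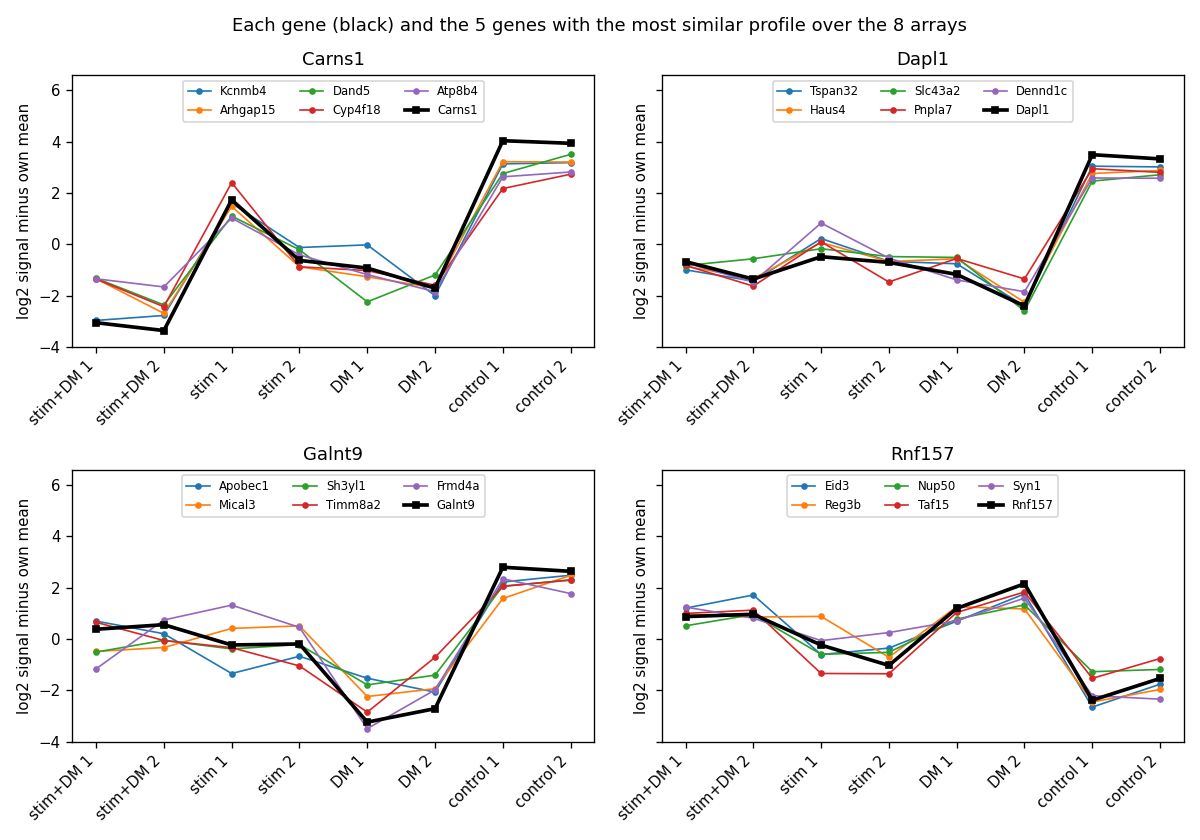
Log2 signal minus each gene's own mean on the 8 arrays (stim, stimulated; DM, dorsomorphin), for each of the 4 genes in black and the 5 genes with the smallest root mean square difference in colour. The Carns1 group is lowest on the stimulated arrays with dorsomorphin or on the dorsomorphin arrays, and each gene of the Rnf157 group is lowest on a control array.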

How the data were processed

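Messenger RNA of 8 arrays in 4 groups was analysed from the deposited table, which holds linear intensity values made by the authors for 45101 probe sets. The submitters' processing notes name RMA and affy, with no version. The deposited intensity values are linear, reach below 1 and have a mean of 500 on every array after trimming 2% at each end, which is not the form of RMA output. Median signals per array were 45.4 to 74.5. The number of arrays limits the precision, and no detection calls were used. Probe sets with 1 symbol in the platform annotation (34945, with 932 having several and 9160 none) were named by it.

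The log2 of the signal was taken without further scaling. A gene's brightest probe set by mean log2 signal stood for it, and it was tested if above the 40th percentile of all values on at least 2 arrays. All 8 arrays were fitted in limma 3.58.1 (R 4.3.3), with two-sided p-values adjusted by Benjamini-Hochberg over 13983 genes and a threshold of 0.05. SEs are limma's, with 4 residual and 1.90 prior degrees of freedom. Log2 folds are dorsomorphin over its absence, or stimulated over unstimulated. The fit was tested on simulated data. Alternatives changed the scaling, an offset, the filter, the probe set, the spread model and the arrays used.

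The members, lists and tests were chosen with earlier results of these data known. Named genes were the members, up to 3 passing genes per list with the largest change, and 5 genes of most similar profile per member. Symbols that name clones were left out of the last. Galnt1, Slc15a4, Lef1 and Bach2 were named although they lay outside the first 3 of their lists, as were Rnf4, Rnf7, Rnf128 and Rnf216. The nearest 2 genes on the array on either side were also named, and Il2, Egr2, Id1, Id2 and Id3 served as checks. Promoter windows come from RefSeq on GRCm38.p6.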

Additional observations from a re-analysis of the deposited data

Results flagged for a closer look

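Galnt9 is listed here because its arrays with dorsomorphin lay on opposite sides of those without it in stimulated and resting cells. In stimulated cells both arrays with dorsomorphin (60.6 and 68.5) were above both arrays without it (39.6 and 40.7), at 0.68 on the log2 scale, which missed the threshold (limma adjusted p = 0.113) and was 0.38 with cyclic loess (adjusted p = 0.514). In resting cells both arrays with dorsomorphin (4.94 and 7.10, under the floor) were below both control arrays (323 and 289). The difference between the 2 changes was not tested, because the resting comparison chose the gene.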

How the results depend on the processing

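For dorsomorphin in stimulated cells, 3096 genes passed (1358 up, 1738 down). The count was 5770 in the fit over 32056 probe sets, 0 by limma with only the 4 arrays compared (4040 at an unadjusted p under 0.05), and 1000 to 2648 when each array was left out. It was 1751 without either control array, 1140 without stimulated replicate 2, and 1000 and 1760 without stimulated dorsomorphin replicate 1 and 2. Leaving out an array leaves fewer residual degrees of freedom. Median centring gave 684 up and 1531 down with a median log2 fold of all genes of -0.19, against 0.07 as reported. Carns1 had -3.76 (adjusted p = 0.0898) with only the 4 arrays compared and -4.94 to -2.58 (adjusted p 0.0231 to 0.0828) over the arrays left out. Rnf157 passed with an offset of 16 (1.5), with the 60th percentile filter (1.55) and with a variance trend plus robust variance estimates (1.55). Its log2 fold was 1.15 to 1.95 over the arrays left out. Dapl1 (-0.76 to -0.08 over all alternatives) and Galnt9 (0.38 with cyclic loess to 0.77 without stimulated dorsomorphin replicate 1) passed under no alternative. No member's fold, on its brightest probe set or on the mean of its probe sets, changed sign in either state. The Rnf157 probe sets 1434427_a_at and 1454953_at, read alone, had log2 folds of the opposite sign in stimulated cells (-0.73 and -0.42). In resting cells the Dapl1 log2 fold was -5.81 and -4.58 without dorsomorphin replicate 1 and 2, and the Rnf157 fold 1.79 with the mean of its probe sets. With the replicate number as a block, 3640 genes passed, Carns1 still passed (adjusted p = 0.0176), and Rnf157 (0.0791), Galnt9 (0.0983) and Dapl1 (0.396) still did not. The labels do not say what a number marks. Deviations of same-numbered arrays correlated at 0.07 to 0.18 between groups. The erythroid genes Alas2 and Slc4a1 were higher on replicate 2 in all 4 groups. Hba-a1, the other erythroid marker, was lower on replicate 2 in control, dorsomorphin and stimulated cells. It was higher there only in stimulated cells with dorsomorphin (9.74 and 18.3), where both values were under the floor. The cause of these changes was not tested.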

Other observations

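Of 13 tested genes next to the 4 genes on the chromosome, in RefSeq order on GRCm38.p6, 1 rose and 4 fell with dorsomorphin in stimulated cells (limma), and 0 rose and 5 fell in resting cells. For the 11 beside Carns1, Dapl1 and Galnt9, 8 had a log2 fold below 0 in resting cells and 4 of these fell, beside 11.1% of all tested genes. Nothing is read from so few genes, which were picked by position. Beside Carns1, Ptprcap, which encodes a protein that binds the phosphatase CD45, fell by 2.54 ± 0.27 in stimulated cells (limma adjusted p = 0.00618) and by 1.83 ± 0.27 in resting cells (adjusted p = 0.0175). Rps6kb2, which ends 941 bases from Carns1, did not pass in either state (-1.21 and -1.49). Tbc1d10c, an inhibitor of calcineurin and Ras, rose by 1.28 ± 0.31 in stimulated cells (adjusted p = 0.0353) and fell by 1.71 ± 0.31 in resting cells (adjusted p = 0.0253). The phosphatase gene Ppp1ca did not pass in either (0.37 and 0.08).

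Beside Dapl1, Pkp4 fell in both states (log2 folds of -1.10 in stimulated and -1.06 in resting cells), Tanc1 and Wdsub1 did not pass, and the clone-named neighbour was not tested. Beside Galnt9, Noc4l, a ribosome assembly gene, fell by 1.72 ± 0.25 in stimulated cells (limma adjusted p = 0.0101), Fbrsl1 fell by 1.79 ± 0.35 in resting cells (adjusted p = 0.0311), and Ddx51 (-0.71 and 0.52) and A630023P12Rik (1.65 and -2.57) did not pass in stimulated or resting cells. Beside Rnf157, the exocyst gene Exoc7 fell by 1.58 ± 0.43 in stimulated cells (limma adjusted p = 0.0496) and by 2.24 ± 0.43 in resting cells (adjusted p = 0.0297), while Rnf157 on its brightest probe set was higher with dorsomorphin. Prpsap1 did not pass, and Foxj1 and Qrich2 were not tested. The background for these calls is 22.1% of all tested genes in stimulated and 13.1% in resting cells.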
